A study of Homo sapiens with 6 samples.

Results

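The 10 genes described here encode parts of the NF-kB pathway and its IL1 ligands. They are the subunits *NFKB1*, *NFKB2*, *RELA* and *RELB*, the inhibitor *NFKBIA*, the regulators *TNFAIP3*, *BIRC3* and *RBCK1*, and the cytokine genes *IL1A* and *IL1B*. Their rows were picked by symbol, for their roles in the pathway and with earlier results of these data known, and all 10 were found among the 31369 genes of the count table and in the FPKM table. Of the 10, 8 passed the filter on low counts, as did 15878 genes in all. The other 2, *IL1A* and *IL1B*, were counted too rarely to be tested.

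RNA was sequenced from HK-2, a cell line derived from the proximal tubule of a human kidney, in 3 control samples (NC) and 3 samples overexpressing *PPM1K* (OE). *PPM1K* encodes a mitochondrial phosphatase that acts on the branched-chain ketoacid dehydrogenase complex. The genotype entries of the samples read WT for NC and PPM1K overexpress for OE, while the titles name shControl and shPPM1K. Day 10 and the treatment entry Chronic kidney disease are given for all 6 samples, and the cell line entry counts up from HK-2 to HK-12 while the cell type entry stays HK-2. According to the methods, a *PPM1K* plasmid was brought in with a Lipofectamine reagent. What the NC cells received is not given in the sources used here, nor is it stated whether the 3 samples of a group were separate cultures, although the study speaks of biological replication. The p-values therefore measure the spread between these samples, which may be technical. The level of *PPM1K* went with the genotype entries, and the samples titled shPPM1K were those with the high level. It had 37, 19 and 53 counts in NC and 3294, 3531 and 2919 in OE. By the quasi-likelihood test of edgeR, its log2 fold change was 6.39 with a standard error (SE) of 0.13 (adjusted p = 1.1e-18).

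The total count lay between 34635770 and 39850802 per sample. NC replicate 2 stood apart in the number of genes with at least 1 count, 26478 against 22094 to 22913 in the other samples. Of 19 kidney epithelial markers, 9 had a mean FPKM of at least 1, among them the keratins *KRT8*, *KRT18* and *KRT19*, and *PAX8*. The defining transporters and receptors of the proximal tubule were nearly absent, *SLC34A1* with an FPKM of 0.02 to 0.14, *AQP1* with at most 0.04 and *CUBN* with at most 0.01. FPKM is the number of fragments scaled to both transcript length and sequencing depth, and only on this scale are levels of different genes compared here. No leukocyte marker of the 11 in the count table and none of 7 endothelial markers had a mean FPKM of 1. The summed FPKM of the leukocyte list was 0.52 to 0.70 in NC and 0.32 to 0.53 in OE, and that of the endothelial list was 0.58 to 0.74 and 0.81 to 0.96. Of 9 fibroblast and pericyte markers, 3 entries (*COL1A1*, *LUM* and *RGS5*) reached a mean FPKM of 1. The summed FPKM of that list was 5.81 to 6.55 in NC and 2.62 to 3.06 in OE, and the epithelial list summed to 865 to 962 in NC and 757 to 817 in OE. The part of these differences in the results below was not tested. In RNA from a whole culture, a change in the share of cells that express a gene and a change in the RNA per cell cannot be told apart.

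NF-kB is a family of dimers built from the Rel proteins and held in the cytoplasm by inhibitors of the IkB type. In the canonical branch, receptors such as those for TNF and IL1 assemble ubiquitin chains that switch on the IKK kinase, IkB-alpha is degraded and dimers of p50 and RelA enter the nucleus. In the noncanonical branch, p100 is processed to p52, which pairs with RelB. Several genes of the pathway are themselves targets of NF-kB and close feedback loops, and in injured kidney tubules the pathway drives inflammatory gene expression. The RNA level of these genes is not a measure of nuclear NF-kB.

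NF-kB dimers bind a short DNA motif, the kB consensus, so the promoters of these genes are shown with the matches to it in capitals. In RefSeq's table of promoters on GRCh38.p14, 9 of the 10 genes were found, with 14 transcription starts in all, while *RELB* was not matched. The 250 bases before each start were searched for the kB consensus on both strands, and overlapping matches were counted as 1 site. A site was found before at least 1 start of 5 of the 9 genes, *NFKB1*, *NFKB2*, *TNFAIP3*, *NFKBIA* and *BIRC3*. Among all genes of the table, 6.28% had such a site. Sequences are printed 5′ to 3′ on the strand of the gene, limited to the stretch outside annotated exons apart from a site that reaches 1 base into one.
NFKB1 (chr4:102501109-102501329, plus strand): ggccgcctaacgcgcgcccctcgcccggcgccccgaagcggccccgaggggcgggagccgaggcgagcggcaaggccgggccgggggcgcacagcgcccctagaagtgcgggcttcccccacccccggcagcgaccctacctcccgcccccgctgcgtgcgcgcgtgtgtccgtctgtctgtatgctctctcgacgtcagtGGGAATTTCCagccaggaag
NFKB2, start 3 (chr10:102395455-102395693, plus strand): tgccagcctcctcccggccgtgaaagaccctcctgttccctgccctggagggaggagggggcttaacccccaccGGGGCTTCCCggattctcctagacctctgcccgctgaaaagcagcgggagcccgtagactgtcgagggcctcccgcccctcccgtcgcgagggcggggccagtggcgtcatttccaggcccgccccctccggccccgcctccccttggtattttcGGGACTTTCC
TNFAIP3 (chr6:137867009-137867213, plus strand): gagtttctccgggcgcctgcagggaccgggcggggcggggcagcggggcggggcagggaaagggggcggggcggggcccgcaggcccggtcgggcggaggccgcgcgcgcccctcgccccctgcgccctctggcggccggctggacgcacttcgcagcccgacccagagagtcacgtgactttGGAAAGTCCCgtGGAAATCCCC
NFKBIA (chr14:35404750-35404999, minus strand): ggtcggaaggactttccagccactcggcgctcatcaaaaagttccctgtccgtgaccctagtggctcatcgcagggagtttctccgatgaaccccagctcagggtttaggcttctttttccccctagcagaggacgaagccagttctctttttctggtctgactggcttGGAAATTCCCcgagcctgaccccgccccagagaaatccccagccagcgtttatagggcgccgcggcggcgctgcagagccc
BIRC3 (chr11:102317234-102317483, plus strand): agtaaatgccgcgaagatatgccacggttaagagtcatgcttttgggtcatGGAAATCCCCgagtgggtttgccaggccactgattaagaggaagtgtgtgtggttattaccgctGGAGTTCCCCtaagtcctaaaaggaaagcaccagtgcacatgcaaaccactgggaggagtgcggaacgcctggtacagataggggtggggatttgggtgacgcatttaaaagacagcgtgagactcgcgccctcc
*NFKB1*, which encodes p105 and its product p50, had 1 match, 49 to 40 bases before its first start. *TNFAIP3* had a tandem pair on the reverse strand, 67 to 58 and 55 to 46 bases before its start. *NFKBIA* had 1, 81 to 72 bases before the start, and *BIRC3* had 2, 199 to 190 and 135 to 126 bases before it. *NFKB2* had 2 before start 2, 107 to 97 and 78 to 69 bases away, and 2 before start 3, 176 to 167 and 21 to 12 bases away. No match was found in the windows of *RELA*, *RBCK1*, *IL1A* and *IL1B*. The only window of *RBCK1*, chr20:408049-408298, had 249 of its 250 bases in an annotated exon of the gene. The bases before the annotated gene start at chr20:407498 were not searched. A match describes letters in a window and not binding.

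**Figure D1:**
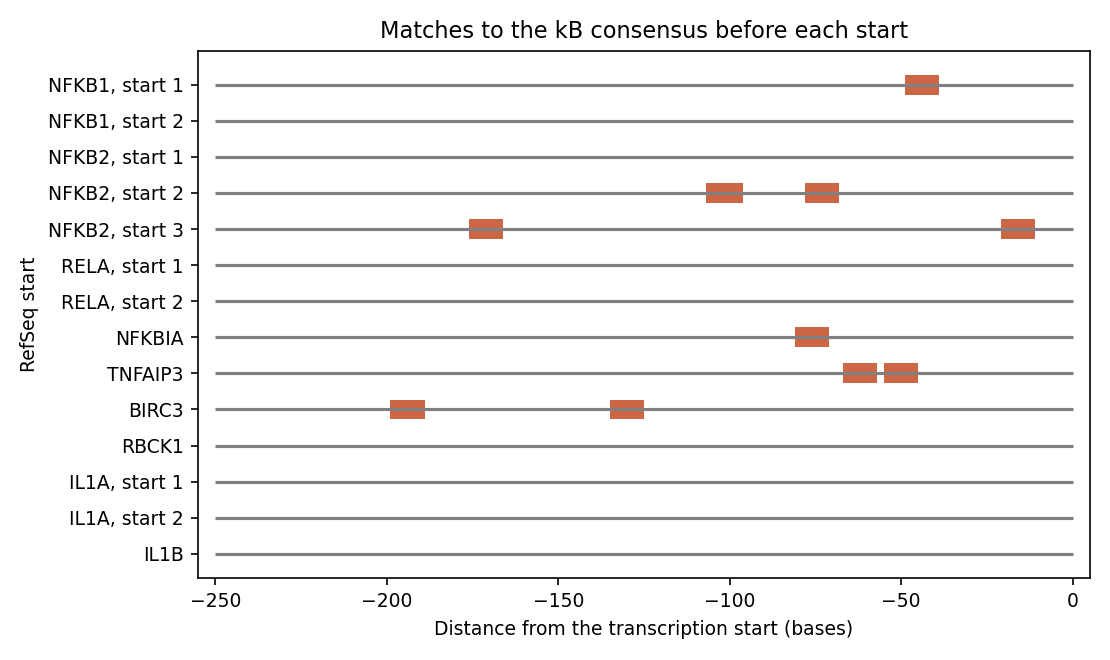
Matches to the kB consensus (orange boxes) in the 250 bases before each RefSeq start of the 9 genes found. The horizontal axis gives the distance from the start in bases. Matches stand before starts of *NFKB1*, *NFKB2*, *NFKBIA*, *TNFAIP3* and *BIRC3*, and the windows of the other 4 genes are empty.

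Of the 8 tested genes, *NFKB1*, *NFKB2*, *RELB*, *TNFAIP3* and *RBCK1* were higher in OE and *BIRC3* was lower, at a Benjamini-Hochberg adjusted p under 0.05 over all tested genes. *RELA* and *NFKBIA* did not pass. Over all tested genes, 24.9% were higher and 23.7% lower at this threshold, so a change at this threshold was common in these samples. Each of the 8 genes had CPM values, counts scaled to library size, that did not overlap between NC and OE, which held for 55.3% of all tested genes. In 6 of the 8 the OE values were the higher ones and in 2 the lower, against 28.2% and 27.1% of all tested genes. The median log2 fold change of the 8 genes was 0.47, and that of all tested genes was −0.0032. Only *RBCK1* also passed a fold change of 2, as did 1.73% of all tested genes in the upward direction, and none of the 8 passed in the downward direction, where 3.79% did.

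**Figure D2:**
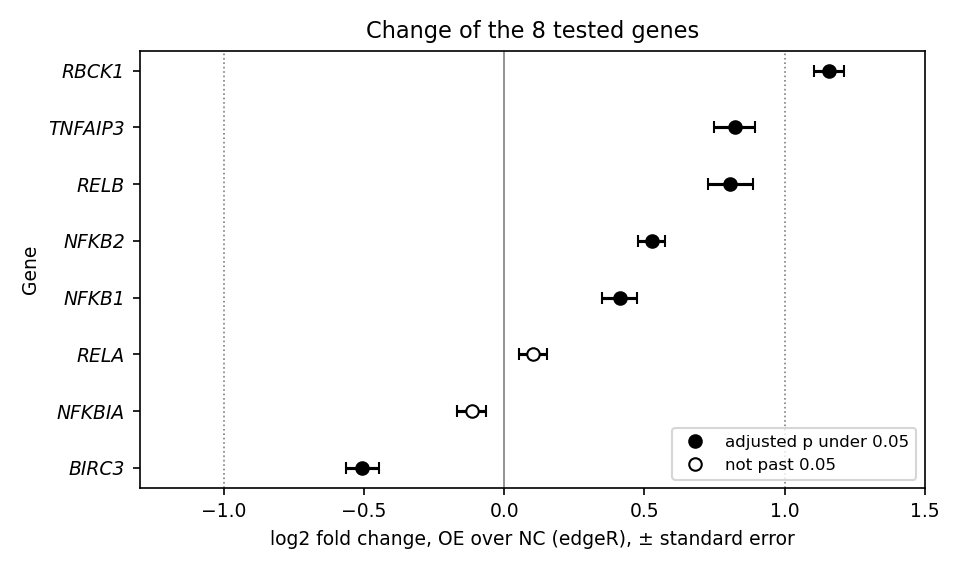
log2 fold change of OE over NC from edgeR (points) with its standard error (bars) for the 8 tested genes, with dotted lines at a fold change of 2 in either direction. Filled points passed an adjusted p of 0.05 and open points did not. *RBCK1* stands beyond the right dotted line at 1.16, and *BIRC3* is the lowest at −0.51.

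Among the subunits, the precursor genes and *RELB* rose and *RELA* did not pass the test. *NFKB2*, which encodes p100 and p52, had 3631, 3685 and 3954 counts in NC and 5718, 6008 and 5539 in OE. Its FPKM was 20.8 ± 0.693 (SD, n = 3) in NC and 30.3 ± 0.248 in OE, and the lowest OE sample was well above the highest NC sample. The log2 fold change was 0.53 (SE 0.05, edgeR adjusted p = 1.6e-08), a fold of 1.44. *RELB*, the partner of p52, had 589, 563 and 580 counts in NC and 1001, 1256 and 976 in OE. OE replicate 2 was the highest and the other OE samples lay close together, all above NC. Its FPKM went from 5.00 ± 0.211 to 8.85 ± 0.875 (SD, n = 3), with a log2 fold change of 0.81 (SE 0.08, edgeR adjusted p = 5.2e-08), a fold of 1.75.

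*NFKB1* had 1377, 1326 and 1371 counts in NC and 1767, 2059 and 1945 in OE. The groups did not overlap, and OE replicate 1 was nearest to NC. Its FPKM was 5.57 ± 0.212 in NC and 7.52 ± 0.539 in OE (SD, n = 3), and the log2 fold change was 0.41 (SE 0.06, edgeR adjusted p = 1.0e-05). *RELA*, the main transactivating subunit of the canonical branch, had 2719, 2662 and 2756 counts in NC and 3055, 3199 and 3050 in OE. In FPKM it was 13.34, 12.59 and 12.96 in NC and 13.94, 13.87 and 14.56 in OE. The difference was small and its log2 fold change of 0.10 (SE 0.05) did not pass, with an adjusted p of 0.094 from edgeR. The summed FPKM of the 4 subunits was 44.3 ± 1.17 in NC and 60.8 ± 1.27 in OE (SD, n = 3). *RELA* made up 29.3% ± 0.418 of that sum in NC and 23.2% ± 0.600 in OE, while *RELB* made up 11.3% ± 0.324 and 14.5% ± 1.28. *NFKB2* was the most abundant of the 4 in every sample, with 46.9% ± 1.02 of the sum in NC and 49.9% ± 0.973 in OE, and *NFKB1* held 12.6% ± 0.290 and 12.3% ± 0.648.

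The inhibitor and the regulators did not move as a block. *NFKBIA* encodes IkB-alpha, which binds NF-kB dimers and is resynthesised after each round of activation. It had 4338, 4302 and 4654 counts in NC and 4443, 4595 and 4025 in OE. The raw counts overlapped, whereas in CPM NC had 122 to 129 and OE 111 to 120. The log2 fold change was −0.12 (SE 0.05) and did not pass, with an adjusted p of 0.065 from edgeR. With upper quartile normalization in place of TMM it was −0.15 with an adjusted p of 0.019 from edgeR, so its call depended on the scaling.

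*TNFAIP3* encodes A20, a ubiquitin-editing enzyme that shuts off signalling to IKK. Its counts were 1007, 1096 and 982 in NC and 1710, 2083 and 2019 in OE, with every OE sample above every NC sample. In FPKM it went from 5.34 ± 0.306 to 9.59 ± 1.01 (SD, n = 3). The log2 fold change was 0.82 (SE 0.07, edgeR adjusted p = 8.2e-09), a fold of 1.77. *WAKMAR2* on the opposite strand, with which it shares 1020 bases, had between 1 and 16 counts.

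*BIRC3* encodes cIAP2, a ubiquitin ligase that joins TNF receptor complexes and restrains cell death. It had 1685, 1804 and 1776 counts in NC and 1286, 1374 and 1285 in OE, so all OE samples were below all NC samples. In FPKM it fell from 6.09 ± 0.101 to 4.35 ± 0.0961 (SD, n = 3). The log2 fold change was −0.51 (SE 0.06, edgeR adjusted p = 4.1e-07), a fold of 0.704. Its spread within the groups was small, with a coefficient of variation in CPM of 2.90% in NC and 0.973% in OE. This was not particular to *BIRC3*, since *NFKB2* had 1.01% in OE and *RELA* 1.64% in NC and 1.86% in OE. *RELB* spread more, with 9.66% in OE. From 3 samples such a value is itself uncertain, and counting error alone can be as large as the smallest of these values. *BIRC2*, the paralog of *BIRC3*, lies 7.81 kb downstream on the same strand. Its log2 fold change of 0.18 (SE 0.07) did not pass, with an adjusted p of 0.052 from edgeR.

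*RBCK1* encodes HOIL-1, a subunit of LUBAC, the enzyme that builds linear ubiquitin chains on NEMO and other parts of the receptor complex. It had 4994, 4798 and 5112 counts in NC and 11717, 13206 and 10566 in OE. Each OE sample had more than 2 times the count of any NC sample. Its FPKM was 24.9 ± 0.984 in NC and 56.4 ± 3.58 in OE (SD, n = 3), and the log2 fold change was 1.16 (SE 0.05, edgeR adjusted p = 4.6e-13), a fold of 2.23. The gene lies at chr20:407498-432139 on the plus strand (GRCh38, annotation of GENCODE release 44). *TBC1D20* lies partly across it on the opposite strand, sharing 8544 bases, and had 851 to 1185 counts and a log2 fold change of 0.21 (SE 0.07, edgeR adjusted p = 0.014). The nearest tested gene upstream is *TRIB3*, a pseudokinase gene of the integrated stress response, which ends 9.94 kb before *RBCK1* on the same strand. *TRIB3* had a log2 fold change of 2.35 (SE 0.06, edgeR adjusted p = 2.6e-17), and *CSNK2A1*, 40.4 kb downstream on the opposite strand, 0.49 (SE 0.05, edgeR adjusted p = 4.2e-08). The study's RT-PCR on the same RNA samples gave a significant decrease of *TRIB3*, opposite to the sequencing. Whether reads running on from a neighbour added to the count of *RBCK1* was not tested. The neighbours were looked up for all 10 genes, and these and *BIRC2* were picked for description after their values were seen.

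*IL1A* and *IL1B* encode IL1-alpha and IL1-beta, the ligands that switch on NF-kB through the IL1 receptor. *IL1A* had 1, 3 and 1 counts in NC and 1, 4 and 2 in OE. *IL1B* had 3, 2 and 1 counts in NC and 1, 2 and 2 in OE. Both genes stayed at 0.01 to 0.05 FPKM in every sample, and the groups overlapped. The depth-scaled ratio of OE over NC was 1.30 for *IL1A* (95% exact interval 0.356 to 5.20, from 5 and 7 counts) and 0.775 for *IL1B* (0.187 to 3.05, from 6 and 5 counts). The intervals cover counting error only, and a difference in either direction within them was not detectable at this depth.

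**Figure D3:**
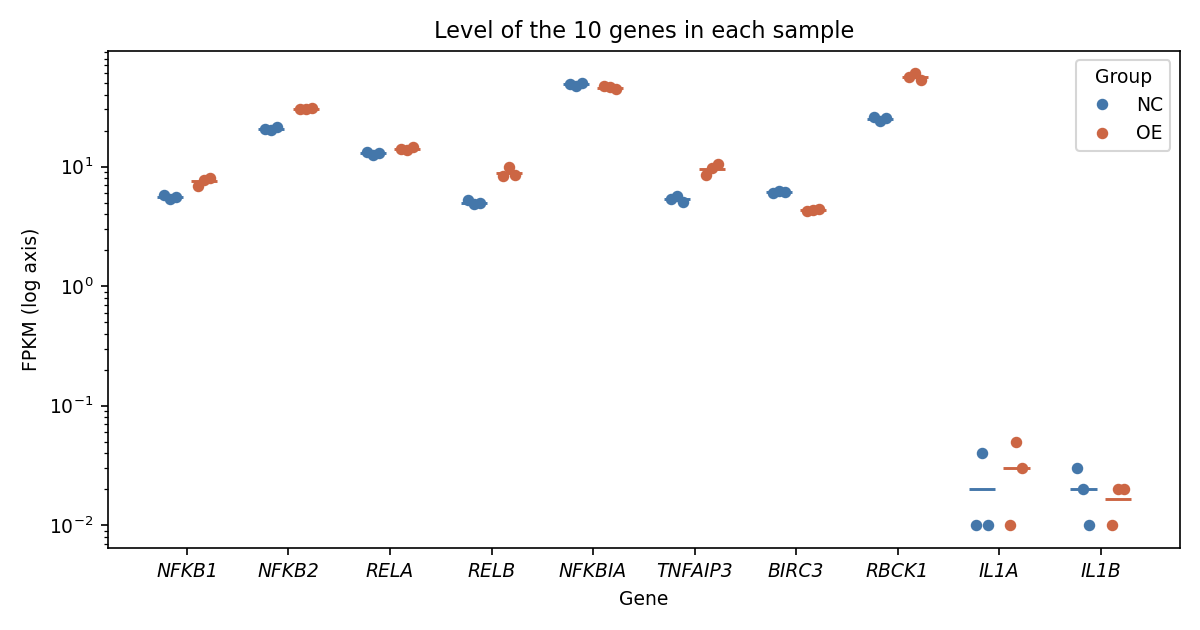
FPKM of the 10 genes on a log axis, with a point for each of the 3 NC (blue) and 3 OE (orange) samples and a line at the mean of the group. *NFKBIA*, *RBCK1* and *NFKB2* lie highest, and *IL1A* and *IL1B* lie at or below 0.05 in every sample.

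The order of the levels changed between the groups. In NC the mean FPKM ran from *NFKBIA* with 48.8 over *RBCK1*, *NFKB2*, *RELA*, *BIRC3*, *NFKB1* and *TNFAIP3* to *RELB* with 5.00. Of these neighbours, *NFKB1* and *TNFAIP3* overlapped, as did *TNFAIP3* and *RELB*. In OE the order was *RBCK1*, *NFKBIA*, *NFKB2*, *RELA*, *TNFAIP3*, *RELB*, *NFKB1* and *BIRC3*. *RBCK1*, below *NFKBIA* in each NC sample, was above it in each OE sample, and *BIRC3* went from the fifth place to the eighth. In OE the neighbours *TNFAIP3* and *RELB* overlapped, and *RELB* and *NFKB1* did not.

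Ratios of FPKM within a sample, which do not depend on library size, were compared to see whether related genes moved by unequal amounts. The ratio of *TNFAIP3* to *NFKBIA*, a pair of feedback inhibitors, was 0.110, 0.120 and 0.0996 in NC and 0.182, 0.214 and 0.237 in OE. On the log2 scale the mean went from −3.19 ± 0.14 to −2.26 ± 0.19 (SD, n = 3), a difference of 0.94. The ratio of *RELB* to *RELA* was 0.392, 0.383 and 0.381 in NC and 0.593, 0.711 and 0.579 in OE, a log2 difference of 0.70. *BIRC3* over *NFKBIA* fell by 0.39 on the log2 scale and *NFKBIA* over *RELA* fell by 0.22. In these 4 ratios the groups did not overlap, and the exact permutation test (two-sided) gave p = 0.1 for each, which is the lowest value possible with 3 against 3, or 0.15 after Benjamini-Hochberg adjustment over the 6 ratios compared. *NFKB2* over *NFKB1* was 3.56, 3.75 and 3.89 in NC and 4.37, 3.94 and 3.84 in OE, where the groups overlapped (log2 difference 0.12, exact permutation p of 0.2, adjusted 0.24). *IL1A* over *IL1B* rested on 1 to 4 counts and overlapped (exact permutation p of 0.5).

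**Figure D4:**
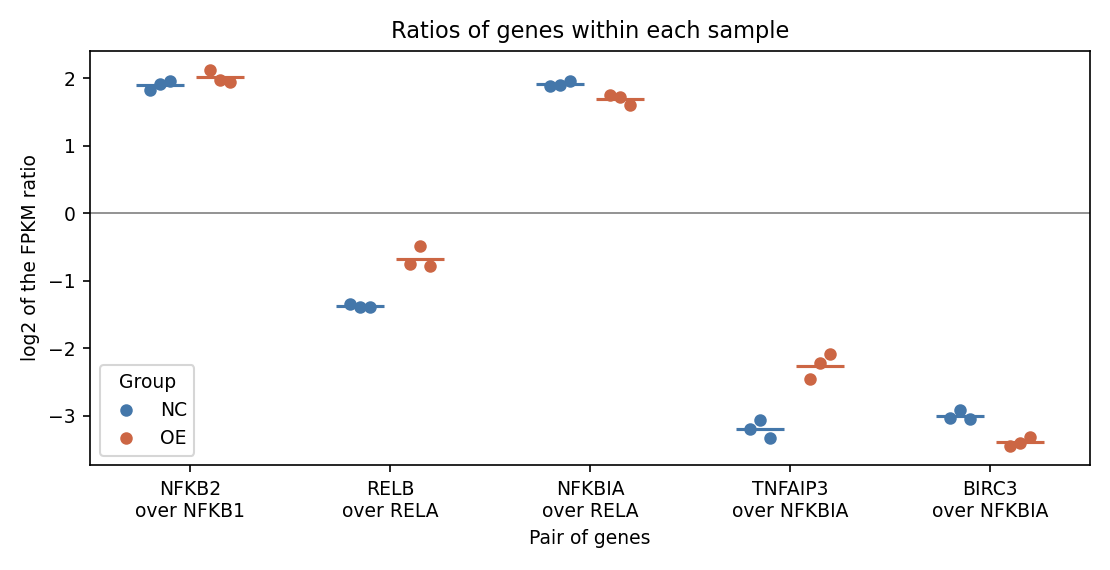
log2 of the FPKM ratio of 5 pairs of genes within each sample, with NC in blue and OE in orange and a line at the group mean. *RELB* over *RELA* and *TNFAIP3* over *NFKBIA* are higher in all OE samples, *NFKBIA* over *RELA* and *BIRC3* over *NFKBIA* are lower, and *NFKB2* over *NFKB1* overlaps.

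The genes with the pattern closest to that of *RBCK1* over the 6 samples were *MARS1*, *YARS1* and *SARS1*, which encode cytosolic aminoacyl-tRNA synthetases. The root mean square distance of their centred log2 CPM from that of *RBCK1* was 0.03, 0.04 and 0.04, and their log2 fold changes were 1.13, 1.11 and 1.20. For *BIRC3* they were *TTC14*, *TRIP13* and *SPCS3*, at distances of 0.02 each and with log2 fold changes of −0.48, −0.50 and −0.53. The measure includes the difference between the groups, and no p is given for it.

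The other genes of the pathway were taken from 6 hand-written lists, and the counts below leave out the 10 genes. Each count is to be read beside the shares over all tested genes, 24.9% higher and 23.7% lower. Of 8 further Rel and IkB genes, 2 were higher and 3 lower in OE, with a median log2 fold change of −0.13. *NFKBIB*, which encodes IkB-beta, was the highest with 0.66 (SE 0.07, edgeR adjusted p = 6.1e-08), followed by *NKIRAS1* with 0.40. The nuclear IkB genes *NFKBIZ* and *BCL3* were lower, with −0.41 (SE 0.06, edgeR adjusted p = 5.9e-06) and −0.38. The remaining lower gene, *NFKBID*, had −0.95 (SE 0.18, edgeR adjusted p = 0.00017) and is named here after its value was seen, since its mean count was under 100.

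Of 26 further kinases and adaptors between the receptors and IKK, 3 were higher and 6 lower, and the median was 0.02. *TRAF1*, an adaptor that is also an NF-kB target, changed most, from an FPKM of 0.473 ± 0.0551 to 1.49 ± 0.123 (SD, n = 3) with a log2 fold change of 1.64 (SE 0.14, edgeR adjusted p = 4.7e-09). *IKBKG*, the gene of NEMO, had 0.43 and *FADD* had 0.27. *IKBKG* has a near-identical pseudogene copy, and reads that fit both may be missing, since only uniquely mapped reads were counted. *RIPK2*, *TRADD* and *MALT1*, which encode signalling proteins of the NOD, TNF and antigen receptors, were lower with −0.66, −0.66 and −0.63 (adjusted p = 6.2e-08, 0.00041 and 1.2e-08 from edgeR).

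Of 13 further genes of LUBAC and of ubiquitin editing, 5 were higher and 1 was lower, with a median of 0.05. *CYLD*, a deubiquitinase that trims linear and K63-linked chains, rose from an FPKM of 1.93 ± 0.0252 to 3.28 ± 0.250 (SD, n = 3), a log2 fold change of 0.74 (SE 0.07, edgeR adjusted p = 8.9e-09). *OTUD7B* had 0.34 and *UBE2L3* 0.20. *TNIP1*, which encodes a partner of A20, was lower with −0.44 (SE 0.06, edgeR adjusted p = 1.7e-06). The other LUBAC subunits differed from *RBCK1*. *SHARPIN* had a log2 fold change of 0.18 and passed (edgeR adjusted p = 0.032), and *RNF31*, the catalytic subunit, had −0.03 and did not (edgeR adjusted p = 0.76). These 2 were picked as the partners of *RBCK1* after their values were seen.

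Of the 31 genes of the IL1 family and its signalling in the count table, 18 were tested, none of them *IL1A* or *IL1B*. Of these 18, 2 were higher and 10 lower with a median of −0.33, beside 24.9% higher and 23.7% lower over all tested genes. *IL1R1*, the signalling receptor of both IL1 cytokines, fell from an FPKM of 0.787 ± 0.0153 to 0.330 ± 0.0173 (SD, n = 3), a log2 fold change of −1.27 (SE 0.13, edgeR adjusted p = 9.2e-08). *IL18*, the only ligand of the family that was tested, fell from 9.96 ± 0.782 to 5.93 ± 0.841 FPKM, and its antagonist *IL18BP* from 1.87 ± 0.321 to 1.13 ± 0.0964, with log2 fold changes of −0.77 and −0.75. *IRAK1*, the kinase downstream of MyD88, was higher with 0.57 (SE 0.05, edgeR adjusted p = 2.2e-08), as was *IRAK2* with 0.29.

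Of 15 tested genes of receptors that feed into the pathway and of the Toll-like receptor adaptor TRIF (*TICAM1*), 5 were higher and 4 lower, with a median of 0.05. *TNFRSF9* had a log2 fold change of 1.02 from an FPKM of 0.340 ± 0.0200 to 0.700 ± 0.0656, *TNFRSF12A* of 0.47 and *CD40* of 0.15, whose samples overlapped. *TNFRSF19* was lower with −1.61 (SE 0.10, edgeR adjusted p = 1.9e-11), as were *TICAM1* with −0.32 and *TNFRSF21* with −0.20.

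Of 31 textbook targets of NF-kB outside the 10 genes, 7 were higher and 15 lower, with a median of −0.14. The lists overlap, and *NFKBIZ*, *BCL3*, *NFKBIE*, *TNIP1* and *TRAF1* were counted here and in a list above. The shares over all tested genes were 24.9% higher and 23.7% lower. The targets did not all move in 1 direction, and more of them were lower than higher. *VCAM1*, *CCL2* and *IL6*, an adhesion molecule, a chemokine and a cytokine, had log2 fold changes of −1.57, −1.53 and −1.06 (adjusted p = 7.3e-13, 4.1e-08 and 3.4e-11 from edgeR). By the study's RT-PCR on the same RNA samples, *CCL2* and *IL6* were significantly higher in OE, opposite to the sequencing. *TRAF1*, *PLAU* and *IRF1* were higher, with 1.64, 0.44 and 0.44. The highest value of the list, 1.99 for the protease gene *MMP9* (SE 0.21, edgeR adjusted p = 1.1e-07), rested on a mean count under 100, and the gene is named after its value was seen. Among the named list genes, *BIRC2*, *TRADD*, *TRAF1*, *OTUD7B*, *IRAK1*, *IRAK2*, *TNFRSF19*, *TICAM1*, *TNFRSF21*, *CD40*, *VCAM1* and *CCL2* overlap no other annotated gene. The rest do, and their counts are uncertain, in part because the use of strand in counting is not stated. Some of these, such as *NFKBIZ* and *BCL3*, overlap a gene on the same strand, which the use of strand could not separate.

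**Figure D5:**
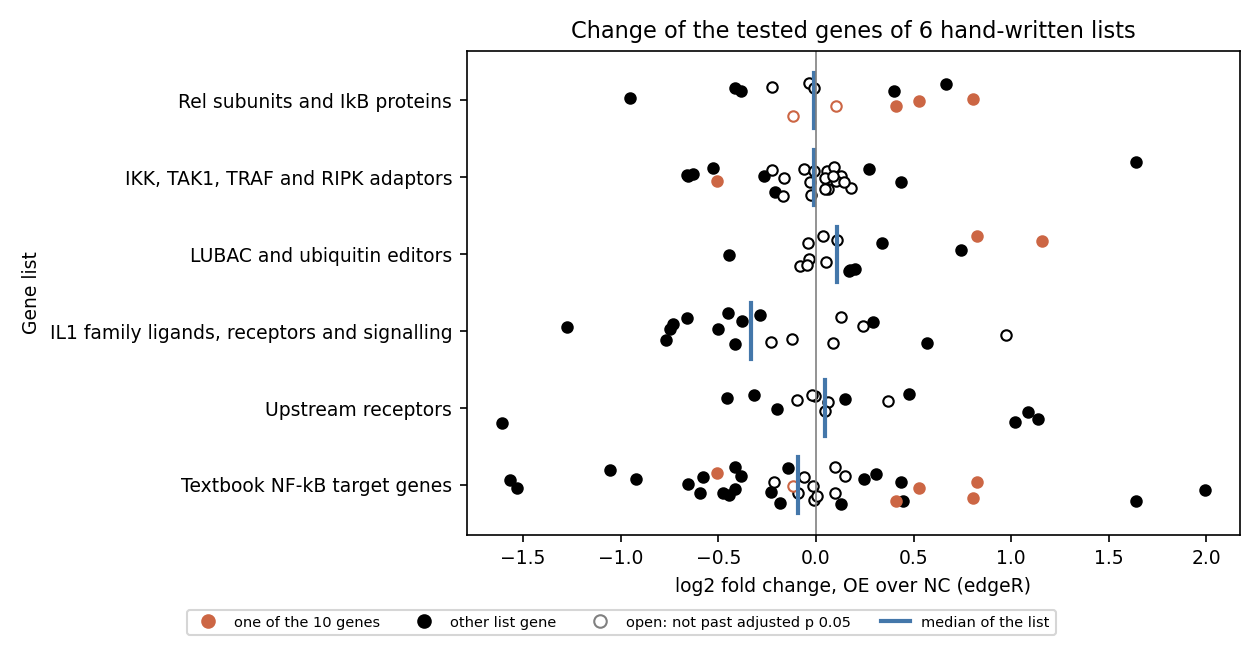
log2 fold change of OE over NC for every tested gene of the 6 lists, with the 10 genes in orange, other genes in black, open points for genes not past an adjusted p of 0.05 and a blue line at the median of each list with the 10 genes included. The IL1 list lies furthest to the left, with a median of −0.33, and the other medians lie between −0.09 and 0.11.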

How the data were processed

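RNA from 3 NC and 3 OE samples of HK-2 cells was sequenced with a stranded mRNA kit. The authors trimmed the reads with FASTX-Toolkit, aligned them to GRCh38 with HISAT2 and deposited counts of uniquely mapped reads per gene, without normalization. The submitters' processing notes name mm10 beside GRCh38, and 99.7% of the gene identifiers were found in human GENCODE release 44. The deposited FPKM values were computed by the authors from the same reads. Which annotation and counting program were used is not given in the sources used here.

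Counts were tested with edgeR 4.0.16 in R 4.3.3 (filterByExpr, TMM, quasi-likelihood F-test, OE against NC), adjusted by Benjamini-Hochberg over 15878 genes. Standard errors were derived from the log2 fold change and its F statistic. The alternatives were DESeq2 1.42.0 (the tool of the study), limma 3.58.1 on log2 FPKM with a pseudocount of 1 or 0.1, other normalizations, no filter, the replicate number as a block and each sample left out in turn. The fits were tested on simulated data in which 100 genes were changed by a log2 fold change of 1 and 100 by 0.5. By edgeR, 81 and 67 of them were recovered, with 11 false calls. Far fewer genes were changed there than were called in these data, so scaling under a broad shift was not tested.

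No sample was a copy of another of its group, since their counts differed by a mean chi-square per gene of 5.12 to 11.7. The 8 tested genes had 563 counts or more in every sample, so counting error is small beside the changes that passed. For some of them it can be as large as the spread within a group. The 10 genes and the lists were chosen with earlier results of these data known. Named from each list were up to 3 genes per direction with the largest change, an adjusted p under 0.05 and a mean count of at least 100. For the likeness, genes with a mean CPM of at least 1 were used. Figures were drawn with matplotlib 3.10.9.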

Additional observations from a re-analysis of the deposited data

How the results depend on the processing

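Across 13 alternatives, the 5 genes higher and the 1 lower in OE kept their direction and their side of the threshold. The exception among the 8 tested genes was *NFKBIA*, which passed with upper quartile normalization, so that 2 of them were then lower. *RELA* passed in none, with an adjusted p of 0.059 to 0.30. Without 1 sample at a time, the log2 fold change was 1.11 to 1.21 for *RBCK1*, 0.76 to 0.90 for *TNFAIP3*, 0.73 to 0.85 for *RELB* and −0.52 to −0.48 for *BIRC3*.

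Over all genes, a fold change above 2 was called for 274 genes higher and 601 lower, against 55 and 69 by limma on log2(FPKM + 1) and 155 and 282 on log2(FPKM + 0.1), scales that compress low values. Same-numbered samples did not deviate together (correlations of −0.0032, −0.066 and −0.054). The correlations cannot tell whether such samples shared a culture or a batch, which is not stated. With the replicate block, 3607 genes rose and 3458 fell at the same threshold, in place of 3949 and 3766, and 5 and 1 of the 10 genes were among them. Depth limits *IL1A* and *IL1B* alone among the 10.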
